A study of Rattus norvegicus with 54 samples.

Results

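The 5 enzymes of the hepatic urea cycle, Cps1, Otc, Ass1, Asl and Arg1, were followed in liver and, beside it, in epididymal adipose tissue and gastrocnemius muscle of male Zucker rats. The members were all probe sets that the platform's annotation assigns to these 5 symbols, which came to 7 of the 15866 non-control probe sets on the Affymetrix Rat 230A array. The annotation gives 1 symbol to 12783 of those probe sets and names 10411 different genes. Cps1 and Asl have 2 probe sets each and Otc, Ass1 and Arg1 have 1 each. Obese rats were homozygous for the fa allele (fa/fa), a loss-of-function change in the leptin receptor gene, and received pioglitazone, rosiglitazone, troglitazone or AG035029, or no compound. Lean rats were heterozygous (fa/+) and received no compound. The labels call all 4 compounds ligands of PPARγ, a nuclear receptor that is most abundant in fat. Each tissue had 3 arrays per group, and each array carried RNA pooled from 2 rats. The labels do not say that the 3 arrays of a group held separate pools, so p-values measure the spread between arrays, which may be in part technical. Doses and treatment times are not given in the sources used here, nor is the age of the rats.

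The urea cycle turns ammonia from amino acid breakdown into urea, which the kidney excretes. In the liver it runs mainly in the hepatocytes around the portal vein. Cps1 makes carbamoyl phosphate from ammonia and bicarbonate in the mitochondrion, and Otc joins it to ornithine to give citrulline. In the cytosol Ass1 joins citrulline to aspartate, Asl splits the product into arginine and fumarate, and Arg1 splits arginine into urea and ornithine. Outside the liver Ass1 and Asl also make arginine for nitric oxide synthesis.

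Proximal promoters were taken from RefSeq for the members that had a passing difference in liver, Asl and Ass1, so that the transcripts that moved can be set beside the sequence in front of them. RefSeq's table on build GRCr8 held a promoter window of 250 bases before to 50 bases after the start for 4 of the 5 genes, Cps1, Otc, Ass1 and Asl. The windows printed are chr12:32295658-32295957 on the + strand for Asl and chr3:35149480-35149779 on the + strand for Ass1, 5′ to 3′, and capitals mark the only matches to the motifs searched, a GC box in Asl and a TATA box in Ass1, both found as the reverse complement.
Asl: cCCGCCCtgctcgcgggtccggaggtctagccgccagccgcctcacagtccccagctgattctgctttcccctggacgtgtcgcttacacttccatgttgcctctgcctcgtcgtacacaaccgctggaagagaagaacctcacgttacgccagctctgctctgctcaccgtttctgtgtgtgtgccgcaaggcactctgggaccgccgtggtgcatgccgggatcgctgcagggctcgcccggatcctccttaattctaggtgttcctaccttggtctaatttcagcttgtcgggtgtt
Ass1: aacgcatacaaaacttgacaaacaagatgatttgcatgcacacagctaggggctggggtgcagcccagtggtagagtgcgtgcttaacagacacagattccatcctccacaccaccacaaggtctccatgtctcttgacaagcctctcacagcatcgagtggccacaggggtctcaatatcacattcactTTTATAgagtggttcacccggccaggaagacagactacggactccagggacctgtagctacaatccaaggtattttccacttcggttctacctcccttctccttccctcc

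The Asl window had a GC content of 60.3% and the Ass1 window one of 51%. Motifs were searched on both strands as plain letters. The element bound by PPAR with its partner RXR, written as 2 copies of AGGTCA with 1 base of any kind between them, occurred in 0.0538% of all 33469 promoter windows of that length and in none of the 4 members' windows. The half-site AGGTCA alone, which lies within that element, occurred in 16.2% of all windows, the glucocorticoid half-site TGTTCT in 20.7%, the cAMP response element TGACGTCA in 1.83% and CCAAT in 37.5%, and none of these was in the 4 windows. The GC box GGGCGG occurred in 33.1% of all windows, with 1 match in Asl, and TATAAA in 14.2%, with 1 match in Ass1. A match is a run of letters and not a measured binding site, and the absence of one says nothing of sites outside these windows.

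The values are MAS5 signals, linear intensities that the authors scaled to a common level: the mean of each array with 2% trimmed at each end lay between 499.3 and 499.9. The median signal of the 18 liver arrays ran from 200.8 to 248.45. Liver identity was clear from 9 hepatocyte markers on the array, whose summed signal was 281190 to 483676 in liver, against 873.1 to 15418.9 in adipose tissue and 897.5 to 1978.2 in muscle. One liver array stood apart in its muscle markers. On the third troglitazone array the 7 skeletal muscle fibre markers on the array summed to 22889, against 436.4 to 1413 on the other 17 liver arrays. No member's call in liver ended when this array was left out, and values without it stand beside the results that use it. The first rosiglitazone array had the lowest median of the liver arrays, 200.8. Its highest signal was 46676, against 71874.5 to 106169 on the other 17 liver arrays. No member's call against untreated obese or lean livers changed without that array. Changes are differences of log2(signal + 20), tested with limma and called passing at an adjusted p under 0.05 over the 9519 probe sets kept in each tissue, whose mean signal lay above the 40th percentile.

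All 7 probe sets were far brighter in liver than in the other tissues. Their levels in the other tissues were mostly near the bottom of the scale, so no fold between tissues is given and the difference is a description, with no test. Otc had signals of 4305 to 8320 over the 18 liver arrays, 3.4 to 8.2 in adipose tissue and 7.8 to 17.3 in muscle. Asl probe set 1368916_at had 1442 to 4335 in liver, 29.6 to 356.8 in adipose tissue and 8.6 to 122.3 in muscle. No liver array overlapped an array of another tissue for any of the 7, but the share of all probe sets with such separation is not given. All 7 passed the filter on low values in liver, 2 passed it in adipose tissue (Asl 1367754_s_at and Arg1) and none passed it in muscle.

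**Figure D1:**
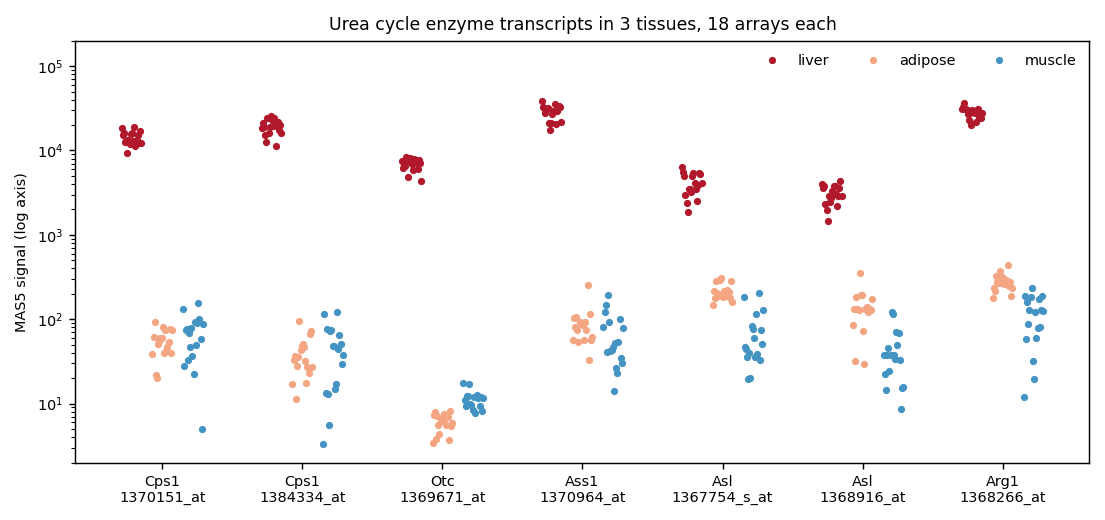
MAS5 signal (log axis) of the 7 probe sets of urea cycle enzymes on each of 18 arrays per tissue, all conditions together (points: single arrays). Liver lies above adipose tissue and muscle for every probe set. For Otc liver spans 4305 to 8320 and adipose tissue 3.4 to 8.2.

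Asl, the enzyme that releases arginine and fumarate from argininosuccinate, rose in the livers of ligand-treated obese rats. Probe set 1368916_at had signals of 3348, 3749 and 3773 on the 3 pioglitazone arrays, 3082, 2196 and 2886 on the rosiglitazone arrays, 3634, 4335 and 2851 on the troglitazone arrays and 3993, 3565 and 3768 on the AG035029 arrays, against 2322, 1958 and 1442 on the untreated obese arrays and 2922, 2447 and 2762 on the lean arrays. All ligand arrays except 1 rosiglitazone array lay above the highest untreated obese array, and the lean arrays lay between the untreated obese arrays and most ligand arrays. Probe set 1367754_s_at had 4984.5, 5368 and 4082 with pioglitazone, 3459, 2531 and 3930 with rosiglitazone, 5411, 5323 and 4082 with troglitazone and 6325, 5629 and 4981 with AG035029, against 2935, 2409 and 1849 in untreated obese livers and 3540, 3534 and 3226 in lean livers. It placed the same rosiglitazone array, the second, within the range of the untreated obese arrays.

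The mean of the 4 ligand groups exceeded the untreated obese group by 0.94 ± 0.15 (SE) on the log2 scale for 1367754_s_at, a 1.92-fold change (adjusted p = 0.0041, limma), and by 0.85 ± 0.15 for 1368916_at, a 1.797-fold change (adjusted p = 0.0069, limma). They stood at places 9 and 16 of the 9519 probe sets ordered by p. The 2 Asl probe sets made up 2 of the 7 member probe sets, while 0.494% of all tested probe sets passed in this comparison, 0.305% of all upward. Arrays of the 12 treated and 3 untreated obese livers were fully separate for 1.48% of all tested probe sets and for none of the 7 members. Without the third untreated obese array, which was the lowest for both probe sets, the differences were 0.77 and 0.66 and neither passed (adjusted p = 0.0561 and 0.104, limma). Without the third troglitazone array they were 0.98 and 0.89 (adjusted p = 0.0035 and 0.0040, limma). These are bulk tissue RNAs, in which fewer cells of a type and less RNA per cell cannot be told apart. Summed hepatocyte markers were 281190 to 483676 on the ligand arrays and 412900 to 477676 on the untreated obese arrays. None of the 34 tested genes of 9 marker lists for liver and other cell types passed in this comparison.

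**Figure D2:**
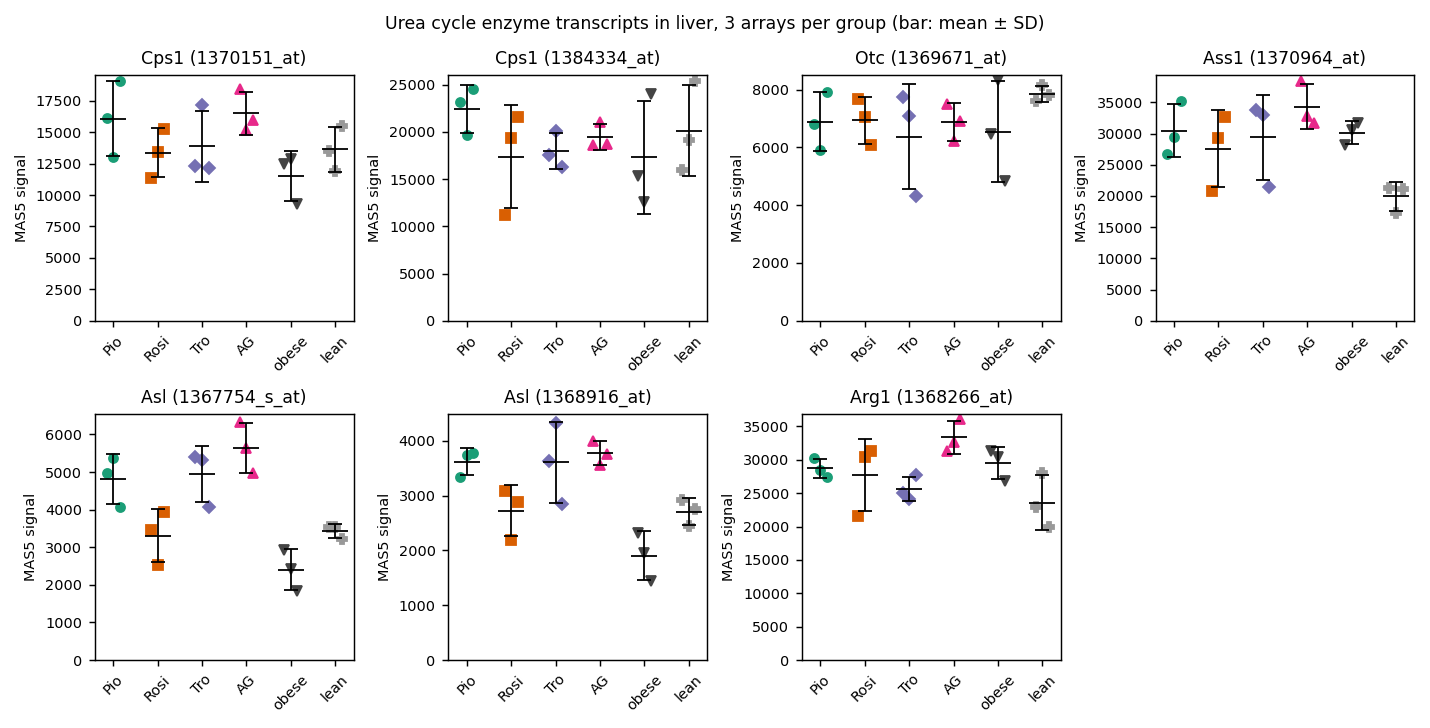
MAS5 signal (vertical axis, from 0) of the 7 probe sets in liver for pioglitazone (Pio), rosiglitazone (Rosi), troglitazone (Tro), AG035029 (AG), untreated obese (obese) and lean groups, with points for the 3 arrays and bars for mean ± SD. The untreated obese arrays are the lowest group for both Asl probe sets, and for Ass1 the untreated obese arrays, at 28119.5 to 31736, lie above the lean arrays, at 17286 to 21255.

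The 2 Asl probe sets are not equally well documented. The accession that the annotation lists for 1367754_s_at belongs, in RefSeq's table, to Hnrnpab, an RNA-binding protein gene, while the annotation's symbol for it is Asl. Over the 18 liver arrays its log2 signal followed that of 1368916_at with r = 0.94, and with r = 0.76 after each group's mean was removed. With 1370309_a_at, the probe set annotated to Hnrnpab, its r was 0.15, and that of 1368916_at was 0.29. Signals of the Hnrnpab probe set were 1049 to 3365 in liver, 1294 to 2212 in adipose tissue and 715.2 to 1086 in muscle, and its difference between the ligand mean and untreated obese livers was 0.03 on the log2 scale. These correlations describe arrays of 6 groups that share an array design and a scaling. The Asl difference of 0.85 on 1368916_at does not rest on the doubtful annotation.

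**Figure D3:**
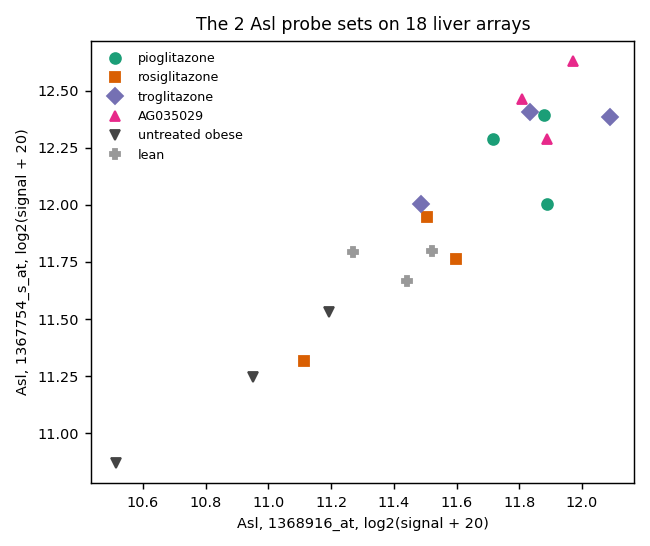
log2(signal + 20) of Asl probe set 1368916_at (horizontal) and 1367754_s_at (vertical) on the 18 liver arrays, one point per array, with marker and colour for each group. The points follow one line (r = 0.94), with the 3 untreated obese arrays and 1 rosiglitazone array at its low end.

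With single ligands, Asl rose past the threshold for troglitazone and AG035029 and missed it for pioglitazone and rosiglitazone. With AG035029 the difference from untreated obese livers was 1.25 ± 0.19 (SE) for 1367754_s_at and 1.003 ± 0.19 for 1368916_at (adjusted p = 0.0042 and 0.0193, limma). Over all tested probe sets 0.2% passed for AG035029. With troglitazone it was 1.05 ± 0.19 and 0.92 ± 0.19 (adjusted p = 0.0115 and 0.0194, limma), where 0.662% of all probe sets passed. Without the third troglitazone array these were 1.18 and 1.08 (adjusted p = 0.0206 and 0.0219, limma). The troglitazone comparison was also the only one of the 4 in which a hepatocyte marker passed, the apolipoprotein gene Apoa1 at -0.76 (adjusted p = 0.0381, limma), and its part in the Asl result was not tested.

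Pioglitazone gave 1.01 ± 0.19 and 0.94 ± 0.19 (adjusted p = 0.0747 and 0.105, limma), with 0.021% of all probe sets passing, and its 3 arrays did not overlap the untreated obese arrays for either probe set. The same lack of overlap was found for 13.2% of all tested probe sets with pioglitazone, 14.5% with troglitazone, 13.6% with AG035029 and 11.3% with rosiglitazone. Rosiglitazone gave 0.46 ± 0.19 and 0.52 ± 0.19 (adjusted p = 0.455 and 0.341, limma), with 0.063% of all probe sets passing and arrays that overlapped. The AG035029 call for 1367754_s_at held whichever of the 18 liver arrays was left out (adjusted p = 0.0024 to 0.0395, limma) and under 10 other settings (adjusted p = 0.0031 to 0.0267, limma). The other calls on single ligands did not. Without the third untreated obese array troglitazone gave 0.88 and 0.73 (adjusted p = 0.0738 and 0.125, limma), and AG035029 gave 0.82 for 1368916_at (adjusted p = 0.123, limma). AG035029 also missed the threshold for 1368916_at when any 1 of its own arrays was left out (adjusted p = 0.0697 to 0.0929, limma). Troglitazone missed it for both probe sets without its second array (adjusted p = 0.0650 and 0.128, limma) and for 1368916_at without its first (adjusted p = 0.0598, limma).

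The ligands were compared with each other in 6 pairs. Pioglitazone, rosiglitazone and troglitazone are thiazolidinediones that differ in the group carried on the far side of their shared ring, and AG035029 carries a code name and no structure is given for it. No pair passed for Asl, where 0.021% of all tested probe sets passed for rosiglitazone minus AG035029, 0.0105% for rosiglitazone minus troglitazone and 0% for the other 4 pairs. Since the doses are not given in the sources used here, they are not known to match. The widest pair was rosiglitazone minus AG035029, at -0.78 with a 95% interval of -1.18 to -0.39 for 1367754_s_at and -0.48 with an interval of -0.87 to -0.10 for 1368916_at (adjusted p = 0.225 and 0.53, limma). For rosiglitazone minus troglitazone the values were -0.59, with an interval of -0.98 to -0.19, and -0.40, with an interval of -0.78 to -0.01. For pioglitazone minus troglitazone they were -0.04, with an interval of -0.43 to 0.36, and 0.03, with an interval of -0.36 to 0.41. With the third troglitazone array left out the pairs with troglitazone were -0.72 and -0.56 for rosiglitazone and -0.17 and -0.13 for pioglitazone, and none passed (adjusted p = 0.82 to 0.9999, limma). The joint test over the 4 ligands gave adjusted p = 0.509 and 0.836 for the 2 Asl probe sets (limma), and 0.0105% of all probe sets passed it. No other member passed any pair or the joint test.

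The other 4 enzymes did not pass in any ligand comparison with untreated obese livers. Cps1, which starts the cycle, had 16131, 13052 and 19082 on pioglitazone arrays and 18435, 15155 and 15961 on AG035029 arrays for 1370151_at, against 12474, 12903 and 9269 on untreated obese arrays. Neither of those ligand groups overlapped the untreated obese one, as was found for 13.2% of all tested probe sets with pioglitazone and 13.6% with AG035029. The rosiglitazone arrays, at 11388 to 15262, and the troglitazone arrays, at 12177 to 17159, did overlap it. The ligand mean difference for this probe set was 0.37 ± 0.15 (SE; adjusted p = 0.345, limma). The second Cps1 probe set, 1384334_at, ranged from 11201 to 24522 over the 12 ligand arrays and from 12588 to 24040 over the 3 untreated obese arrays, with a difference of 0.19 ± 0.19. The 2 Cps1 probe sets followed each other only weakly over the 18 liver arrays (r = 0.38). Otc, the next enzyme, differed by 0.07 ± 0.16, Ass1 by -0.01 ± 0.15 and Arg1 by -0.04 ± 0.13, with 95% intervals of -0.28 to 0.41, -0.32 to 0.31 and -0.31 to 0.22. The signs of the Ass1 and Arg1 differences turn under quantile normalization. Leaving out the third troglitazone array gave differences of 0.39 and 0.21 for Cps1, 0.13 for Otc, 0.05 for Ass1 and -0.06 for Arg1, and none passed (adjusted p = 0.338 to 0.947, limma). The median over the 7 member probe sets was 0.19, while that of all tested probe sets was -0.01.

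**Figure D4:**
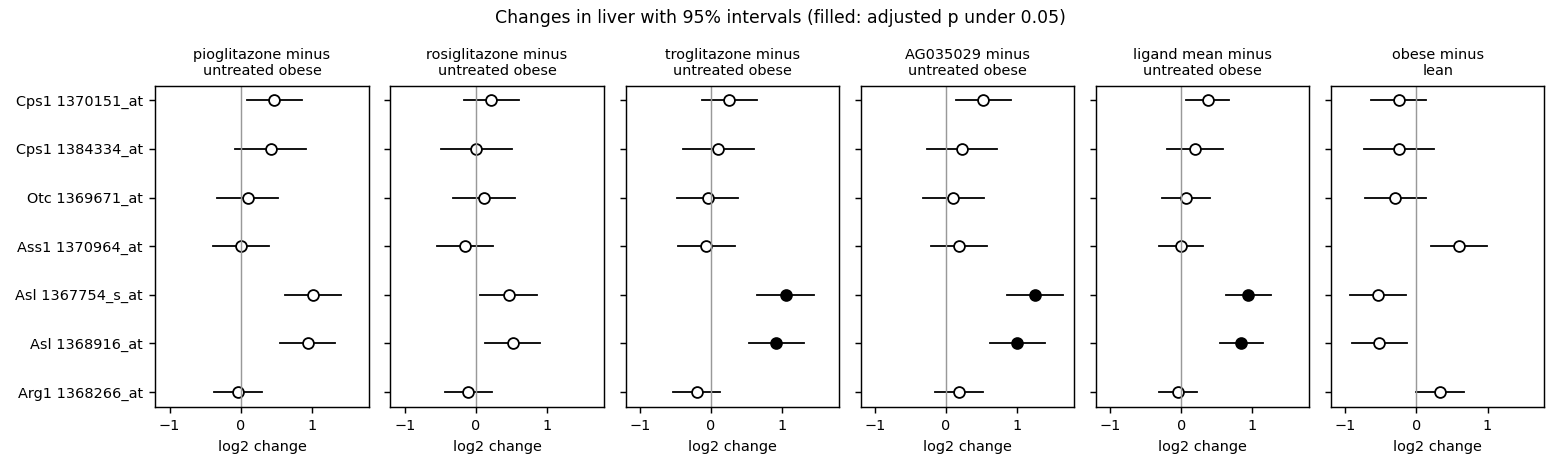
log2 change with its 95% interval (horizontal axis) of each probe set (rows) in liver for the 4 ligands and their mean against untreated obese rats and for untreated obese against lean rats; filled points passed at an adjusted p under 0.05. Only the Asl points are filled, for troglitazone, AG035029 and the ligand mean.

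No member passed between untreated obese and lean livers, where 0.672% of all tested probe sets did. Ass1, which joins citrulline to aspartate, had signals of 28119.5, 30497 and 31736 in untreated obese livers, against 21255, 17286 and 21180 in lean livers. Every untreated obese array was above every lean array, and the difference was 0.60 ± 0.19 (SE; 95% interval 0.21 to 0.998; adjusted p = 0.201, limma). The Asl differences were negative, at -0.54 ± 0.19 for 1367754_s_at and -0.53 ± 0.19 for 1368916_at (adjusted p = 0.28 for both, limma), also with no overlap of arrays. Such separate arrays were seen for 13.7% of all tested probe sets and for 3 of the 7 member probe sets, that of Ass1 and both of Asl. Arg1 differed by 0.33 ± 0.16, Otc by -0.30 ± 0.21 and the Cps1 probe sets by -0.25 ± 0.19 and -0.25 ± 0.24, all with overlapping arrays. In simulated data of this design 36.5% of changes of 1 on the log2 scale were recovered in this comparison. Those changes lay on tested probe sets drawn at random and were larger than the member differences above. The rate was not measured for the members.

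Set against lean livers, the ligand groups had a higher Ass1. Ass1 had 26757, 29481 and 35144 with pioglitazone, 20823, 29252 and 32692 with rosiglitazone, 33762, 32896 and 21474 with troglitazone and 38397, 32813.5 and 31677.5 with AG035029. All but the first rosiglitazone array lay above the highest lean array, at 21255. The ligand mean exceeded the lean group by 0.60 ± 0.15 (SE; adjusted p = 0.0297, limma), where 3.18% of all tested probe sets passed. It was 0.65 with the third troglitazone array left out (adjusted p = 0.0099, limma). The call ended with no filter on low values (adjusted p = 0.107, limma) and without any 1 of the lean arrays (adjusted p = 0.0682 to 0.234, limma). Asl stood above lean livers by 0.41 ± 0.15 and 0.32 ± 0.15 and Arg1, the last enzyme, by 0.29 ± 0.13, and none of these passed (adjusted p = 0.171, 0.292 and 0.262, limma). This comparison shares its ligand arrays with the one against untreated obese livers. It also sets fa/fa rats against fa/+ rats, so genotype and ligand cannot be told apart in it. For Ass1, untreated obese livers differed from lean livers by 0.60, and the ligand mean differed from untreated obese livers by -0.01.

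In adipose tissue only Arg1 and Asl 1367754_s_at passed the filter on low values. Arg1 had a median of 256.1 over 12 ligand arrays, with a range of 177 to 433.7, against 325.7, 276.3 and 266.5 on the untreated obese arrays and 371.5, 294.1 and 316.1 on the lean arrays. Its ligand mean difference was -0.16 ± 0.15 (SE; adjusted p = 0.466, limma), and that of Asl was -0.17 ± 0.17 (adjusted p = 0.515, limma), while 20.6% of all probe sets passed there. Between untreated obese and lean adipose tissue the differences were -0.16 ± 0.19 and -0.21 ± 0.21, and neither passed where 6.02% of all probe sets did. Markers of other cell types had different summed signals in these groups. The 9 hepatocyte markers summed to 4609 to 15419 on ligand arrays, against 873.1 to 1385 on untreated obese and 1875 to 3519 on lean arrays, and the macrophage and Kupffer cell markers to 14258 to 29002 on ligand arrays, against 31616 to 32592 on untreated obese and 15696 to 19181 on lean arrays. These sums do not show which genes of a list differed. Members below the filter are given as mean signals on ligand and untreated obese arrays. Otc had 6.3 and 5.5, Ass1 89.1 and 78, and Asl 1368916_at 109.1 and 147.6. Cps1 had 60.1 and 30.9 on 1370151_at and 37.5 and 24.8 on 1384334_at. The part of the markers in the member values was not tested.

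Against lean adipose tissue the ligand mean differed by -0.33 ± 0.15 (SE) for Arg1 and by -0.38 ± 0.17 for Asl 1367754_s_at, and neither passed (adjusted p = 0.0943 and 0.0882, limma), while 35.5% of all probe sets did. Asl 1367754_s_at passed without the third lean or the second troglitazone array (-0.57 and -0.44, adjusted p = 0.0320 and 0.0323, limma), and Arg1 without the second rosiglitazone array (-0.39, adjusted p = 0.0206, limma). Asl 1368916_at was below the filter, with signals of 29.6 to 174.5 on the 12 ligand arrays, against 356.8, 194.4 and 193.4 on the lean arrays. The share of all probe sets with separate arrays is not given for this comparison, so these ranges are a description only. With no filter the difference was -1.11 (adjusted p = 0.0157, limma), where 22% of all probe sets passed. Genotype and ligand cannot be told apart in a comparison with lean rats.

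Whether the ligand difference of Asl depended on tissue was tested in the fit of all 54 arrays, which kept probe sets that passed the filter on low values in any tissue. Probe set 1368916_at entered it through liver alone, and 1367754_s_at through liver and adipose tissue. That fit treated arrays of different tissues as independent, and a pairing of them by rat was not tested. For 1368916_at the ligand difference was larger in liver than in adipose tissue by 1.32 ± 0.37 (SE; adjusted p = 0.0262, limma), where 4.43% of all probe sets passed. Its adipose signals were 29.6 to 174.5 on ligand arrays, against 181, 132.3 and 129.6 on untreated obese arrays. The gap thus rests in part on dim values below the adipose filter, and no tissue difference is concluded from it. The ligand difference of these adipose values was -0.47 with no filter (adjusted p = 0.378, limma). Without the third troglitazone liver array the gap was 1.36 (adjusted p = 0.0240, limma). The call ended without the first or the second untreated obese adipose array (1.18 and 1.38, adjusted p = 0.124 and 0.0521, limma) and without the third untreated obese liver array (1.13, adjusted p = 0.102, limma). For 1367754_s_at the gap was 1.11 ± 0.43 (adjusted p = 0.144, limma). Against muscle the gaps were 0.97 ± 0.37 for 1368916_at and 0.09 ± 0.43 for 1367754_s_at (adjusted p = 0.26 and 0.965, limma), where 0.859% of all probe sets passed. Both were dim in muscle and below its filter. Their ligand differences there were -0.13 and 0.86 with no filter (adjusted p = 0.977 and 0.831, limma). The test over the 3 tissues together passed for neither probe set (adjusted p = 0.0507 for 1368916_at and 0.189 for 1367754_s_at, limma), where 4.93% of all probe sets passed. Without the third troglitazone liver array 1 of the 7 member probe sets passed it.

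The genes around the cycle are given as counts beside the share of all tested probe sets, which was 0.494% for the ligand mean against untreated obese livers and 0.672% for untreated obese against lean livers. Of 13 tested partners of the cycle, such as carriers and enzymes that supply its substrates, 0 passed for the ligand mean against untreated obese livers (median log2 difference 0.12) and 0 passed for untreated obese against lean livers (median 0.29). Slc25a15, the mitochondrial ornithine carrier, differed by -0.38 ± 0.17 (SE) for the ligand mean and Slc25a13, the aspartate and glutamate carrier, by -0.12 ± 0.15. Arg2, the mitochondrial arginase, had signals of 25.4 to 283.3 in liver and differed by -0.21 ± 0.33. Glul, which fixes ammonia as glutamine in the hepatocytes around the central vein, differed by 0.70 ± 0.21, 0.46 ± 0.20 and 0.50 ± 0.19 on its 3 probe sets (adjusted p = 0.15, 0.411 and 0.314, limma). Of 13 tested genes of arginine, nitric oxide and polyamine use none passed in either comparison.

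Among 26 tested genes of amino acid breakdown, 1 passed between untreated obese and lean livers and 0 for the ligand mean (medians 0.29 and -0.01). The one was Prodh2, an enzyme of hydroxyproline breakdown, at 1.05 ± 0.21 (SE; adjusted p = 0.0161, limma) in untreated obese livers. It missed the threshold without the first or the third untreated obese array or the second or the third lean array (adjusted p = 0.0525 to 0.0920, limma) and without the variance trend (adjusted p = 0.0637, limma). Among 15 transcription factors, hormone receptors and hormone-responsive genes tied to the cycle's regulation, 1 passed for the ligand mean, Igfbp1, an insulin-repressed gene for a binding protein of insulin-like growth factors. It stood at 2.20 ± 0.33 (adjusted p = 0.0031, limma), and passed whichever of the 18 liver arrays was left out (adjusted p = 0.0013 to 0.0382, limma). None of these 15 passed between untreated obese and lean livers.

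Among genes that mark liver zones, 0 of 10 periportal and 2 of 12 pericentral genes passed for the ligand mean, and none of either for untreated obese against lean livers. The pericentral genes were Cyp1a2, a cytochrome P450, at 0.84 ± 0.18 (SE; adjusted p = 0.0337, limma), and the glutamate transporter gene Slc1a2 at 1.98 ± 0.34 (adjusted p = 0.0069, limma). Without the first untreated obese array these were 0.71 and 1.38 and neither passed (adjusted p = 0.242 and 0.0745, limma), and Cyp1a2 also missed the threshold without any of 5 other single arrays, among them the third untreated obese array (0.70, adjusted p = 0.215, limma), with no filter on low values (adjusted p = 0.0594, limma) and without the variance trend (adjusted p = 0.108, limma). Without the third troglitazone array Igfbp1 stood at 2.24, Cyp1a2 at 0.84 and Slc1a2 at 1.999 (adjusted p = 0.0035, 0.0463 and 0.0097, limma). A second Slc1a2 probe set was below the filter. The median ligand difference was 0.08 over the periportal and 0.33 over the pericentral genes. Some genes stand on more than 1 of these lists.

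Likeness to the members was measured as the mean Pearson r over the 18 liver arrays with the 5 enzymes. Each enzyme stood for itself by its brightest probe set in liver, which was 1384334_at for Cps1 and the less well documented 1367754_s_at for Asl. The highest were Slc38a4, an amino acid transporter, with a mean r of 0.44, Slc13a2, a citrate and succinate transporter, with 0.42, Scaf11 with 0.42, Tmem106a with 0.41 and Sds, the serine dehydratase gene, with 0.40. For Slc38a4 the r was 0.68 with Ass1 and 0.67 with Asl, but 0.09 with Otc. Between probe sets of different members r ran from -0.22, for Otc with Arg1, to 0.72, for Cps1 1370151_at with Asl 1368916_at. Ass1 had an r of 0.50 with Arg1. After each group's mean was removed, r was -0.04 for Ass1 with Arg1 and -0.16 for Otc with Arg1. For Cps1 1370151_at with Asl 1368916_at it was then 0.52. Other probe sets of Scaf11 had an r of -0.39 and -0.18 with Asl 1368916_at, against 0.72 for the listed one. These values describe arrays of 6 groups and carry no test.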

How the data were processed

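Total RNA of liver, epididymal adipose tissue and gastrocnemius muscle was hybridised to 54 Affymetrix Rat 230A arrays, with RNA of 2 rats pooled per array, per the labels. The deposited values are linear intensities made with MAS5, per the submitters' processing notes; the version is not given in the sources used here. Samples were grouped by tissue, genotype and ligand as labelled. Of 15923 probe sets, 57 controls were left out. Signals were used as log2(signal + 20), filtered per tissue at the 40th percentile of mean signal, and fitted with limma 3.58.1 in R 4.3.3 (18 arrays per tissue, trended eBayes, Benjamini-Hochberg adjustment). A second fit held all 54 arrays. The filter used mean signal over all groups. Tests were two-sided. The number of arrays limits the precision. In simulated data with changes of 1 on the log2 scale, the liver fit recovered 65.5% for the ligand mean. Within a tissue, arrays sharing a replicate number did not deviate together, so numbers were not used as pairs. Whether same-numbered arrays of different tissues came from the same rats was not tested. The fit of all 54 arrays treated them as independent. Genes were named by rule: every member, Slc25a15, Slc25a13, Arg2 and Glul, up to 3 passing genes per direction in each list, and the 5 genes most like the members. Nags was not analysed here. Members and lists were chosen with earlier results of these data known. Alternatives covered pseudocount, filter, normalization, array weights, trend, a replicate block, the arrays fitted and each array left out.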

Additional observations from a re-analysis of the deposited data

Results flagged for a closer look

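The ligand difference of Asl (1368916_at) was larger in liver than in adipose tissue by 1.32 ± 0.37 (SE) on the log2 scale, by a test of the difference itself in the limma fit of all 54 arrays (adjusted p = 0.0262). The probe set entered that fit through liver alone, since it lay below the filters on low values of adipose tissue and muscle, so the gap rests in part on dim adipose signals, whose own ligand difference was -0.47 with no filter (adjusted p = 0.378, limma). In addition, the joint test over 3 tissues did not pass (adjusted p = 0.0507, limma). The gap of the other Asl probe set, 1367754_s_at, was 1.11 and did not pass either (adjusted p = 0.144, limma). The gap of 1368916_at missed the threshold with a pseudocount of 5, quantile normalization, median centring or array quality weights (1.41, 1.16, 1.23 and 1.18, with adjusted p = 0.0631, 0.0617, 0.0533 and 0.143, limma). No tissue difference of Asl is concluded from these values. With groups of 3 arrays, no array was tested as standing apart from its group.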

How the results depend on the processing

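Precision is limited by 3 arrays per group and by dim signals outside liver. The 2 passing Asl probe sets of the ligand mean against untreated obese livers became 0 without the third untreated obese array and stayed 2 under every other alternative run. Counts of passing member probe sets in the other comparisons moved more. Without the variance trend, and likewise in fits of only the arrays compared, troglitazone gave 0 and AG035029 gave 1, against 2 each. Leaving out single arrays gave 0 to 2 for troglitazone, 1 to 2 for AG035029 and 0 to 2 for pioglitazone, which gave 1 with array quality weights, against 0. The ligand mean against lean livers gave 0 with no filter or no trend, and 0 to 1 with single arrays left out, against 1. Against lean adipose tissue the ligand mean gave 1 with no filter (Asl 1368916_at) and 0 to 1 with single arrays left out, against 0. The joint test over tissues gave 2 with a pseudocount of 80, 1 with a filter at the 60th percentile and 0 to 1 with single arrays left out, against 0. The cause was not tested.

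Signs turned for 8 results, none of which passed with either sign. Quantile normalization gave the ligand mean differences of Ass1 as 0.11 and Arg1 as 0.080. Median centring gave Asl 1368916_at for pioglitazone minus troglitazone as -0.033. The Asl 1367754_s_at gap between liver and muscle was -0.13 with a pseudocount of 5 and -0.060 with quantile normalization. Leaving out single arrays gave ligand mean differences in liver of -0.013 to 0.45 for Cps1 1384334_at, -0.13 to 0.26 for Otc, -0.054 to 0.048 for Ass1 and -0.11 to 0.0023 for Arg1. In adipose tissue it gave -0.28 to 0.0022 for Asl 1367754_s_at. For pioglitazone minus troglitazone it gave -0.17 to 0.078 for Asl 1367754_s_at and -0.13 to 0.17 for 1368916_at. The gap of Asl 1367754_s_at between liver and muscle ran from -0.086 to 0.27.

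The replicate numbers shared across groups did not pair the arrays: same-numbered arrays had a mean correlation of deviations of 0.0032 in liver and 0.0184 in adipose tissue. With the replicate block the ligand mean differences of Asl in liver were 0.94 and 0.85 (adjusted p = 0.0037 and 0.0088, limma), and no call on a member changed.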
